A study of Bos taurus with 15 samples.

Results

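The interstitial collagens of skeletal muscle are represented here by 10 genes: COL1A1, COL1A2, COL3A1, COL5A1, COL5A2, COL6A1, COL6A2, COL6A3, COL12A1 and COL14A1. They were chosen by name, and their probes were found by the gene name, the gene identifier or the human symbol in the array annotation. This gave 11 probes of the 21475 on the array, and 10 of the 17241 genes that carry a name. COL1A2 had 2 probes and every other member 1; each probe was printed as 2 spots.

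Total RNA of the biceps brachii, a muscle of the forelimb, was hybridised to 1-colour Agilent bovine arrays, with 1 array per animal and 15 animals in all. The 8 prednisolone animals (P25 to P32, numbered as in the labels) were given the synthetic glucocorticoid prednisolone orally, 30 mg daily per animal over 35 days, and their RNA was isolated with TRIzol and cleaned with RNeasy MinElute columns. The 7 control animals (C17, C18 and C20 to C24) are labelled CONTROL, and their RNA was isolated with the RNeasy Mini kit. The protocol text of the control samples describes exposures to Finaplix, to Revalor and to Revalor with dexamethasone and leaves unsaid whether these 7 animals had any of them. Treatment and extraction method coincide, so they cannot be told apart. The series' design text speaks of cows for the treated group.

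Collagens are secreted as triple helices of alpha chains. Types I, III and V assemble together into the banded fibrils that give the connective tissue around muscle fibres and fibre bundles its tensile strength; type VI forms beaded microfibrils close to the fibres, and types XII and XIV coat the surface of type I fibrils. In muscle these chains are made mainly by fibroblasts, and in tendon by tenocytes. Glucocorticoids are known to lower the synthesis of types I and III in skin and other connective tissue.

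Each array gave a value for 72.1% to 87.4% of its spots. Values are log2 intensities, with each array shifted to a common 75th percentile, and errors are SDs between animals. All 15 measured muscle fibre markers were well above background on the 8 prednisolone arrays by the scanner software's flag; the same flag is not used here for the control arrays. Transcripts of testis germ cells stood out on P31 and C20, where the 10 measured markers summed to 249950 and 361296 intensity units, and transcripts of thymocytes on C17, where the 7 measured markers summed to 27536. The counts below were therefore repeated without these 3 arrays. Among prednisolone animals the thymocyte sum ran between 188 (P26) and 9774 (P30), and P30 was kept in that repeat. The germ cell sums ran between 618 and 249950 in prednisolone animals and between 3135 and 361296 in control animals. All 10 germ cell markers had a negative difference between prednisolone and control animals (median -2.32), against 47.5% of all tested genes. None was called by limma, and 3 had an unadjusted limma p under 0.05, against 3.21% of all tested genes. PRM1, a sperm protamine, averaged 9.51 ± 5.2 in prednisolone animals and 14.53 ± 2.69 in control animals (n = 8 and 7). Because whole muscle was sampled, fewer cells of a type and less RNA per cell cannot be told apart.

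The first question was whether collagen transcripts differed between prednisolone and control animals. None of the 9 members that could be tested passed limma's test at an adjusted p of 0.05, and neither did any of the 16833 tested genes (0.0% called). For 7 of the 9 members the difference was negative, that is, lower in prednisolone animals, where 47.5% of all tested genes had a negative difference. These signs are not separate observations, since 8 of the members varied together across animals, as given below. Of the 7, COL5A1 (-0.029) and COL12A1 (-0.13) changed sign in 8 and 3 of 29 alternatives. The 2 positive ones, COL6A1 and COL6A2, did so in 12 and 1. The median difference of the 9 members was -0.25 on the log2 scale, and that of all tested genes was 0.012. The part of the germ cell transcripts, whose differences were also negative, in these differences was not tested. The largest difference among the members was that of COL3A1.

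COL1A1 encodes the alpha 1 chain of type I collagen, the main fibril protein of tendon and perimysium. In prednisolone animals it had a lowest, median and highest log2 intensity of 11.64 (P32), 12.93 and 15.08 (P25), against 12.49 (C24), 13.9 and 14.56 (C18) in control animals. The groups overlapped: the highest and the lowest of the 15 values were both from prednisolone animals, and 6 of 8 prednisolone animals lay below the control median. COL1A1 averaged 13.11 ± 1.08 in prednisolone animals (n = 8) and 13.67 ± 0.72 in control animals (n = 7), a log2 difference of -0.56 (95% interval -1.53 to 0.41, limma adjusted p = 0.993).

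COL1A2 encodes the alpha 2 chain of the same molecule. Its lowest, median and highest values were 10.57 (P32), 11.95 and 13.59 (P25) in prednisolone animals, against 11.38 (C24), 12.57 and 12.91 (C18) in control animals. The order of the animals was close to that of COL1A1, with P25 on top and P30 and P32 at the bottom. The difference was -0.44 (95% interval -1.30 to 0.41, limma adjusted p = 0.993). The other COL1A2 probe lay between 1.35 and 1.57 on the 12 arrays that gave it a value and was well above background on 0 of the 8 prednisolone arrays, so it gives no level of the gene.

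COL3A1 encodes type III collagen, which forms thin fibrils with type I and is prominent in the mesh around fibre bundles and single fibres. Its lowest, median and highest values were 11.47 (P32), 12.88 and 13.89 (P25) in prednisolone animals, against 13.01 (C17), 13.54 and 14.10 (C18) in control animals. Of the 8 prednisolone animals, P27, P28, P29, P30 and P32 lay below every control animal, P31 and the lowest control both measured 13.01, and P25 and P26 lay in the upper part of the control range. COL3A1 averaged 12.82 ± 0.83 in prednisolone animals (n = 8) and 13.52 ± 0.37 in control animals (n = 7). The difference of -0.70 (95% interval -1.39 to -0.01) is a ratio of 0.614 (95% interval 0.381 to 0.99), with an unadjusted limma p of 0.046, an adjusted p of 0.993 and an exact two-sided permutation p of 0.0578. An unadjusted limma p under 0.05 was found for 1 of the 9 members, COL3A1, and for 540 genes in all (3.21% of those tested), of which 262 (1.56%) were lower in prednisolone animals.

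Type V collagen is a minor fibril component that sets fibril diameter. COL5A1, its alpha 1 chain, ranged between 5.78 and 7.92 in prednisolone animals and between 5.75 and 7.74 in control animals, and the difference was -0.029 (95% interval -0.81 to 0.76). COL5A2, its alpha 2 chain, ranged between 7.91 and 9.79 in prednisolone animals and between 8.34 and 9.71 in control animals, with a difference of -0.25 (95% interval -0.87 to 0.38). For both genes the ranges of the groups nearly coincided, or that of the control animals lay inside the other.

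Type VI collagen is built of 3 different chains, and COL6A1 and COL6A2 encode the short ones. COL6A1 averaged 9.24 ± 0.52 in prednisolone animals and 9.24 ± 0.68 in control animals; the difference was 0.0079 (95% interval -0.62 to 0.64). COL6A2 averaged 8.23 ± 0.30 in the 7 prednisolone animals and 8.16 ± 0.22 in the 6 control animals with a value, a difference of 0.067 (95% interval -0.27 to 0.41); P25 and C23 had none and were left out of its fit. COL6A3, the large chain that carries most of the microfibril's globular domains, averaged 9.51 ± 0.65 in prednisolone animals and 9.80 ± 0.74 in control animals; the difference was -0.29 (95% interval -1.02 to 0.43). Its lowest value in each group was P32 at 8.37 and C17 at 8.53, and the groups overlapped over nearly their whole range.

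COL12A1 encodes the fibril-associated type XII collagen, which is abundant in tendon and fascia. Its lowest, median and highest values were 6.87 (P30), 8.36 and 10.89 (P26) in prednisolone animals, against 7.40 (C24), 8.46 and 10.84 (C18) in control animals. P25, P26 and C18 formed a high set at 10.69, 10.89 and 10.84, apart from the other 12 animals, of which the highest was C22 at 9.38. The averages of 8.64 ± 1.49 in prednisolone animals and 8.77 ± 1.16 in control animals differed by -0.13 (95% interval -1.53 to 1.26). COL14A1, the type XIV chain, had a value on only 3 prednisolone and 2 control arrays, at 1.39 to 1.79, was not well above background on any of the 8 prednisolone arrays and was not tested. The other 9 genes were well above background on all 8 prednisolone arrays and saturated on none. The probes of LOC537387 and LOC616119 are described as like chains of types V and VI. They carry no human symbol and were not counted as members. They were well above background on 1 and 0 of the 8 prednisolone arrays, with differences of -0.5 and -0.11 (limma adjusted p = 0.993 for both).

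**Figure D1:**
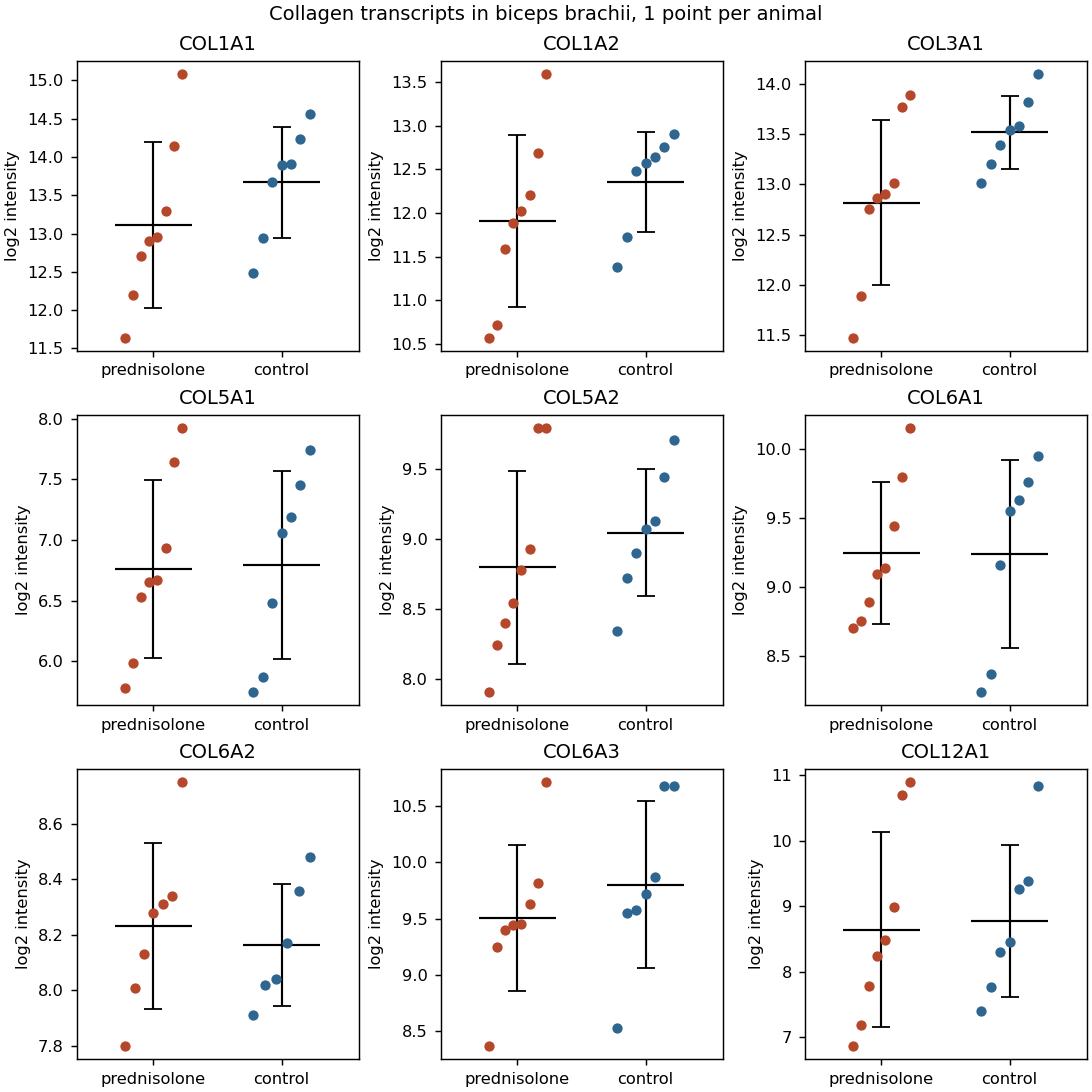
Log2 intensity of 9 collagen transcripts in biceps brachii, 1 point per animal, with the group mean (wide bar) and SD (whiskers); prednisolone animals are on the left of each panel (8 animals, 7 for COL6A2) and control animals on the right (7 animals, 6 for COL6A2). The groups overlap in every panel; for COL1A1 the prednisolone animals span 11.64 to 15.08 and the control animals 12.49 to 14.56.

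**Figure D2:**
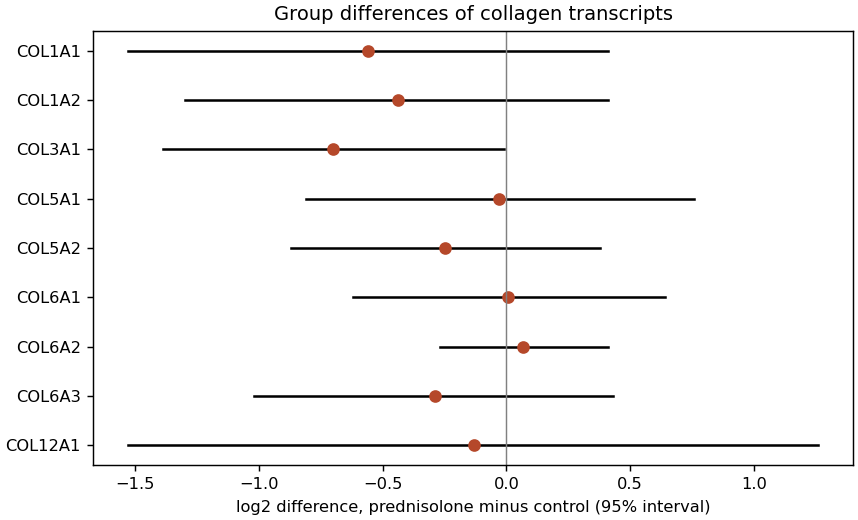
Log2 difference between prednisolone and control animals for 9 collagen transcripts (points) with 95% intervals from limma (lines). The COL3A1 interval, -1.39 to -0.01, ends just below 0, and the other 8 intervals include 0.

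Slides and scan days were read from the file headers of the prednisolone arrays, and those of the control arrays are not used here. P25 and P26 shared slide 1 and scan day 1, P27 to P31 were scanned on day 2, and P32 stood alone on slide 5 and scan day 3. Among prednisolone animals, slide 1 held the 2 highest values of COL1A1, COL1A2, COL3A1, COL5A1, COL5A2, COL6A1 and COL12A1, and P32 held the lowest value of each of these genes except COL12A1. Without P25 and P26 the difference was -1.05 for COL1A1, -1.04 for COL3A1, -0.85 for COL1A2 and -0.85 for COL12A1. Without P32 as well, so that all prednisolone arrays came from scan day 2, it was -0.86 for COL1A1 and -0.84 for COL3A1. No member passed limma's test in either case. Neither fit was planned, and the direction of the shifts was fixed beforehand. Leaving out the highest prednisolone values lowers that group's mean, and leaving out its lowest raises it. The part of the slide in these values was not tested, since the animal and the slide position cannot be told apart.

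Animals of the same group differed widely in these genes. Within groups, the SD of COL12A1 was 1.35, higher than that of 96.5% of the 11883 genes with a value on all arrays, and that of COL1A1 was 0.93, above 92.3% of them. The other 6 collagens with a value on all arrays lay between the 79.7 and 89.9 percentiles, where the median gene had an SD of 0.36. From the lowest to the highest animal, COL12A1 covered a 16.2-fold range, COL1A1 a 10.9-fold range and COL1A2 an 8.15-fold range, while COL6A2 covered a 1.93-fold range. The repeat spots of a probe had an SD of 0.035 to 0.13 for these 8 genes; they share the RNA, the labelling and the array, so this gives the error of a spot and not that of an animal's measurement, for which there was no repeat array.

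This spread was shared. Correlations were computed over the 15 animals after each group's mean was removed, for all 36 pairs of the 9 measured collagens, with 100000 permutations within groups and adjustment over the 36 pairs. A Pearson r of 0.7 or more was reached by 26 of the 36 pairs, against 1.98% of the 70596903 pairs among all genes with a value on all arrays. Those genes include dim ones and had a median SD within groups of 0.36, against 0.59 to 1.35 for the 8 collagens on all arrays. Pairs of genes of like spread or brightness were not counted for comparison. The 28 pairs among the 8 collagens other than COL6A2 had r between 0.67 and 0.96, with a median of 0.87, and all 28 had an adjusted permutation p under 0.05 (9e-05 to 0.00824). In prednisolone animals alone their r lay between 0.69 and 0.97, and in control animals alone between 0.50 and 0.97. The highest r was that of COL1A1 and COL1A2, the 2 chains of type I collagen, with r = 0.96 and Spearman rho = 0.93 (n = 15, permutation p = 1e-05, the smallest these permutations can give, and 3e-05 for rho), and r = 0.92 without P25 and P32.

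Some pairs are given in full. COL5A1 and COL12A1 had r = 0.94 and rho = 0.93 (n = 15, permutation p = 1e-05 and 2e-05), with r = 0.90 without C18 and P26. COL1A1 and COL3A1 had r = 0.92 and rho = 0.89 (n = 15, permutation p = 8e-05 and 9e-05), with r = 0.88 without P25 and P32. COL3A1 and COL5A2, which lie side by side in the bovine RefSeq annotation with 0 protein-coding genes between them, had r = 0.90 and rho = 0.91 (n = 15, permutation p = 6e-05 and 4e-05), with r = 0.96 without P30 and P32. COL6A1, a type VI chain, tracked the fibril formers at r of 0.75 to 0.91.

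The 7 pairs of COL6A3 with these genes had r between 0.67 (with COL12A1) and 0.80 (with COL5A2). The relation of COL6A3 with COL1A1 (r = 0.71, rho = 0.59, permutation p = 0.00421 and 0.0277, adjusted 0.00606 and 0.0381, n = 15) had r = 0.44 without P25 and P32, and that with COL6A1, its partner in the type VI molecule (r = 0.70, rho = 0.59, permutation p = 0.00593 and 0.0286, adjusted 0.00791 and 0.0381), had r = 0.41 without C17 and P25. The 2 animals left out were those farthest from the median of COL1A1 or of COL6A1. Leaving them out narrows the range, which tends to lower r, and the part of those animals was not tested.

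COL6A2 did not follow the others. Its 8 pairs had r between -0.19 and 0.18, with adjusted permutation p of 0.668 to 0.99. With COL6A1, which lies beside it in the annotation and whose protein is built into the same molecule, r was 0.04 and rho 0.05 (n = 13, permutation p = 0.897 and 0.867), and 0.25 without C17 and C18. COL6A2 also had the narrowest range, 7.80 on P31 to 8.75 on P29. Its probe was measured less completely than the others: both spots had a value on 10 arrays, 1 spot on 3 and none on 2. On those 10 arrays the repeat spots differed by a steady 0.22 to 0.47 and correlated at r = 0.989; they share 1 hybridisation per animal, so this says nothing of how well the probe reports COL6A2. With this gap removed before averaging, the 8 correlations were -0.25 to 0.08. P25 had no deposited value because the scanner software had not found the spots; its scanner signal for COL6A2, 8.64 before scaling, was the second of 8 behind P29 at 8.70, while COL1A1 was highest on P25.

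**Figure D3:**
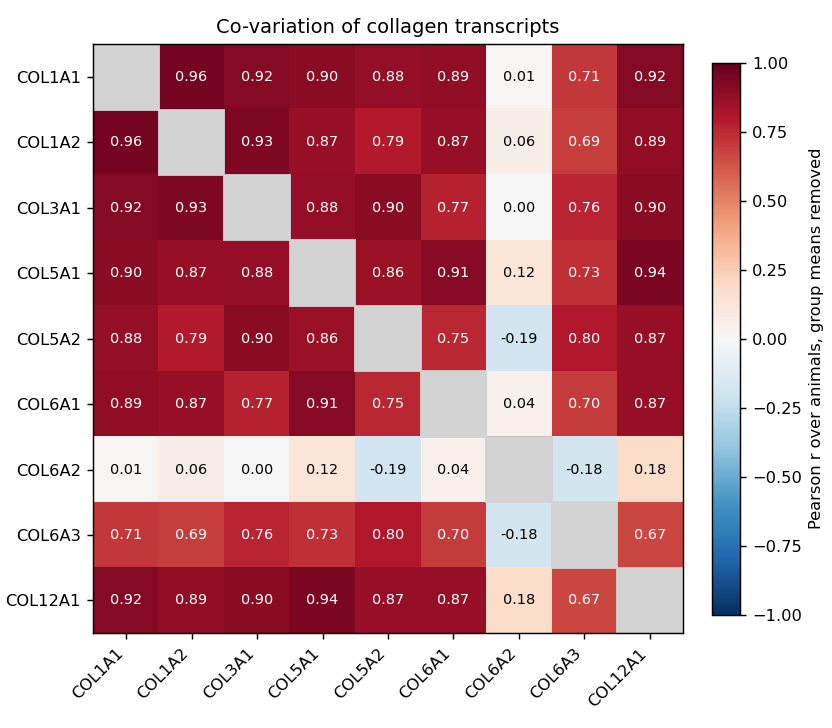
Pearson r between 9 collagen transcripts over 15 animals (13 for pairs with COL6A2) after removal of each group's mean; red is positive and blue negative, and the number in each cell is r. The row and column of COL6A2 lie between -0.19 and 0.18, and all other cells lie between 0.67 and 0.96.

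The animals could be ordered by the mean of the 8 collagens with a value on all arrays, given here as a description. Relative to the mean of all arrays, the highest were P25 at 1.21, C18 at 1.07, P26 at 0.84 and C22 at 0.62. The lowest were P32 at -1.29, P30 at -0.96, C17 at -0.70 and C24 at -0.55. All 8 genes were above their 15-animal median on P25, P26, C18 and C22, and 0 of 8 on P27, P30, P32 and C17, so both groups held animals with collagen high and animals with collagen low throughout. Genes differed in how far they moved with the others, here after removal of group means. Per log2 unit of the mean of the others, COL12A1 moved by 1.88, COL1A1 by 1.23, COL1A2 by 1.03 and COL5A1 by 0.95. COL3A1 moved by 0.81, COL5A2 and COL6A1 by 0.69 each and COL6A3 by 0.67. COL6A2, set against the mean of all 8 over 13 animals, moved by 0.01. Each slope is that of 1 probe on its own set of others, so the slopes share no common scale.

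**Figure D4:**
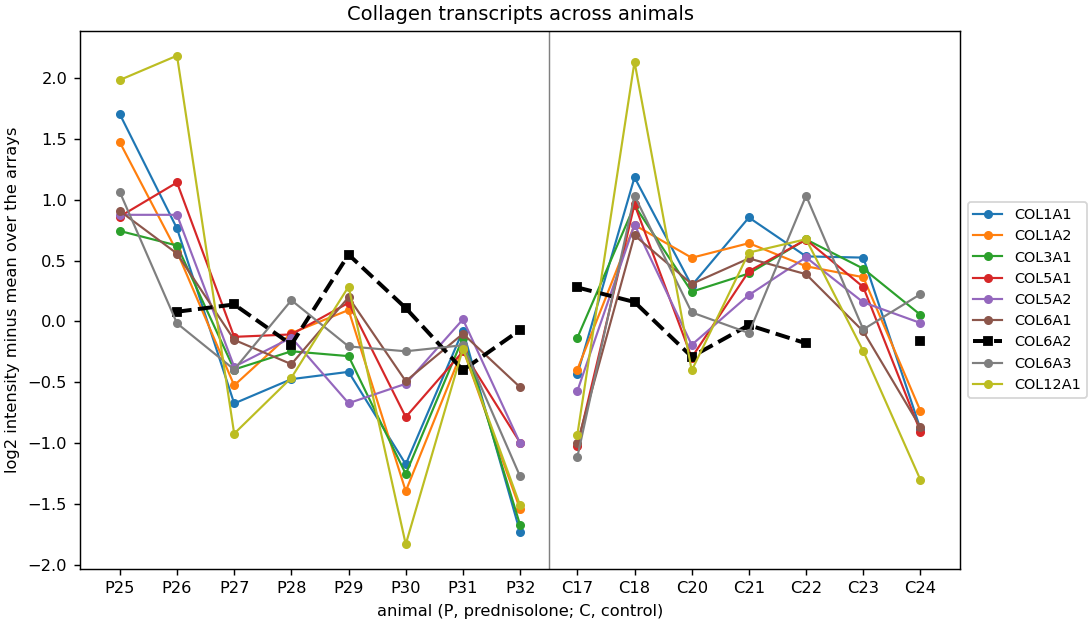
Log2 intensity of 9 collagen transcripts minus each gene's mean over the arrays, for 8 prednisolone animals (left of the grey line) and 7 control animals (right); lines join the points of a gene and imply no order of animals. The 8 coloured lines peak on P25 or P26 among prednisolone animals and are high on C18 among control animals, while the dashed COL6A2 line runs apart from them.

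Differences between 2 collagens on the same array do not depend on the scaling of that array, and 5 such balances were compared between groups with exact two-sided permutation tests over all splits of the animals. COL3A1 minus COL1A1, the balance of type III against type I, averaged -0.30 ± 0.39 in prednisolone animals and -0.15 ± 0.45 in control animals, a difference of -0.15 (exact p = 0.524, n = 8 and 7). P25, at -1.19, and C24, at 0.71, had the lowest and the highest balance. The chains within type I (COL1A1 minus COL1A2, difference -0.11), within type V (COL5A2 minus COL5A1, -0.22) and within type VI (COL6A3 minus COL6A1, -0.30, and COL6A2 minus COL6A1, 0.20) gave exact p between 0.269 and 0.564. All 5 had an adjusted p of 0.564. These balances compare groups; a difference of 2 probes is not a ratio of transcript amounts.

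Among all other genes with a value on all arrays, 292 of 11875 (2.46%) had an r of 0.7 or more with the mean of the 8 collagens, and the median gene had r = -0.06. The 10 closest were AEBP1 (r = 0.98), FNDC1 (0.97), PCOLCE, MXRA5, MRC2 and FLJ35258 (0.96 each), and CPXM2, THY1, GSN and FKBP10 (0.95 each), all over 15 animals. AEBP1 is a secreted protein that binds fibrillar collagen, PCOLCE enhances the cleavage of the procollagen C-propeptide, MRC2 is an endocytic receptor for collagen fragments, THY1 is a fibroblast surface antigen and FKBP10 is a prolyl isomerase of the endoplasmic reticulum that folds procollagen. AEBP1 ranged between 9.29 and 12.86, and its difference between prednisolone and control animals was -0.26 (95% interval -1.47 to 0.95). None of the 10 passed limma's test, with adjusted p of 0.993 to 0.995; MXRA5 was well above background on 6 of the 8 prednisolone arrays and the other 9 on all 8.

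Genes of collagen biology were followed in 7 lists. None of their genes passed limma's test. For collagen synthesis, 13 of 27 tested genes had a positive and 14 a negative difference, and 6 of the 23 measured on all arrays had r of 0.7 or more with the collagen mean. PCOLCE and FKBP10 led this list, whereas the collagen chaperone SERPINH1 had r = 0.57 and the prolyl hydroxylase subunit P4HA1 r = 0.25. COLGALT2, a collagen galactosyltransferase, averaged 9.99 ± 0.23 in prednisolone animals and 10.39 ± 0.35 in control animals (difference -0.40, limma adjusted p = 0.993), and PPIB, a procollagen isomerase, averaged 9.28 ± 0.31 in prednisolone animals and 8.97 ± 0.21 in control animals (difference 0.31, adjusted p = 0.993).

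Of the 6 crosslinking enzymes, 2 had a positive and 4 a negative difference, and 3 followed the collagens: LOXL2 (r = 0.93), LOXL1 (0.84) and LOX (0.75), which oxidise lysines of collagen and elastin. TGM2, a transglutaminase, had r = 0.14. The breakdown list had 11 positive and 7 negative differences among 18 tested genes, and 4 of 14 had r of 0.7 or more, with MRC2 (0.96) and the gelatinase MMP2 (0.90) on top. TIMP4, an inhibitor of metalloproteinases, averaged 10.87 ± 0.26 in prednisolone animals and 11.32 ± 0.37 in control animals (difference -0.45, 95% interval -0.80 to -0.09, limma adjusted p = 0.993). The collagenase MMP1 was well above background on only 2 of the 8 prednisolone arrays.

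Collagen receptors had 4 positive and 7 negative differences, and 3 of 10 followed the collagens, among them the fibroblast integrin chain ITGA11 (r = 0.83) and the receptor kinase DDR2 (0.78). DDR1, the related kinase of epithelia, had r = 0.06. Proteoglycans, glycoproteins and microfibril proteins that bind collagen fibrils had 20 of 26 genes at r of 0.7 or more and a median r of 0.78, with 17 positive and 11 negative differences. Fibromodulin (FMOD), which regulates fibril growth, led with r = 0.95, followed by fibronectin (FN1) with 0.94. Thrombospondin 2 (THBS2) had r = 0.73 and averaged 7.36 ± 0.61 in prednisolone animals and 7.86 ± 0.54 in control animals, a difference of -0.50 (limma adjusted p = 0.993).

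Other collagen genes had 15 positive and 14 negative differences, and 4 of 15 reached r of 0.7. COL5A3, the third chain of type V, was closest with r = 0.88, and COL18A1, a basement membrane collagen, had 0.83. In the TGF-beta pathway, which drives collagen transcription in fibroblasts, 16 differences were positive and 8 negative, and 7 of 23 genes reached r of 0.7, with the latent TGF-beta binding proteins LTBP2 (0.80) and LTBP3 (0.78) on top. The ligand TGFB3 averaged 9.09 ± 0.53 in prednisolone animals and 8.47 ± 0.45 in control animals (difference 0.62, 95% interval 0.09 to 1.14, limma adjusted p = 0.993). Its r with the collagen mean was 0.43. Of the genes with the smallest p in their list, ITGA1, OGN and COL8A1 were not well above background on any of the 8 prednisolone arrays, and COL26A1 was on 3.

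Markers of other cell types were set beside the collagens in the same animals, with COL1A1 as the collagen and 12 measures of the arrays. The mean of 6 tendon and cartilage markers with a value on all arrays (TNMD, THBS4, FMOD, ACAN, CHAD and CILP) had r = 0.91 and rho = 0.93 with COL1A1 over 15 animals (permutation p = 4e-05 and 1e-05, adjusted p = 0.00024 and 0.00012), and r = 0.87 without P25 and P26. Within groups r was 0.92 in prednisolone animals (exact p = 0.00104) and 0.88 in control animals (exact p = 0.0117). The mean of 11 fibroblast markers had r = 0.89 and rho = 0.91 (permutation p = 4e-05 and 3e-05, adjusted p = 0.00024 and 0.00018), and r = 0.83 without P25 and P30. These 11 markers did not all follow the collagens: 7 had r of 0.7 or more with the collagen mean. PDGFRB had 0.54, DPT 0.46, CD34 0.12 and PDPN 0.08. Of the measured tendon and cartilage markers 3 of 12, and of the fibroblast markers 4 of 12, also stand in another list.

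The 6 tendon and cartilage markers did not all follow the collagens: 4 had r of 0.7 or more with the collagen mean, while ACAN had 0.41 and CILP 0.44. Tenomodulin (TNMD, r = 0.93) is a membrane protein of tendon cells. It measured 13.60 on P26, 12.39 on P25 and 11.72 on C18, the same 3 animals that were high for COL12A1, against 4.48 to 9.52 on the other 6 prednisolone animals and 4.55 to 8.81 on the other 6 control animals. The 12 measured tendon and cartilage markers summed to 6663 (P32) to 76287 (P26) intensity units in prednisolone animals and to 4715 (C17) to 46617 (C18) in control animals. Of the defining genes, SCX and PRG4 were not well above background on any of the 8 prednisolone arrays. With the mean of the 6 markers removed by regression, 1 of the 36 collagen pairs kept r of 0.7 or more, COL1A1 and COL1A2 with 0.82, and the 28 pairs other than those of COL6A2 had r between -0.21 and 0.82 with a median of 0.28. This regression was not planned. FMOD and THBS4 of these markers also stand among the fibril-associated genes, with r of 0.95 and 0.93 with the collagen mean. Removing the marker mean therefore takes out variation shared with the collagens, whatever its source. The fibroblast mean was not removed for comparison. How much tendon the samples held was not measured, and its part in these correlations was not tested.

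None of the other 10 measures had an adjusted p under 0.05 with COL1A1. The muscle fibre marker mean had r = 0.60 and rho = 0.50 (permutation p = 0.0225 and 0.0665, adjusted p = 0.0899 and 0.2), the share of spots with a value r = 0.51 and rho = 0.58 (0.0408 and 0.0269, adjusted 0.0992 and 0.108), and the thymocyte mean r = -0.55 and rho = -0.40 (0.0413 and 0.149, adjusted 0.0992 and 0.298). Without the 2 farthest arrays of each measure these r were 0.40, 0.55 and -0.45. Within prednisolone animals the share of spots with a value had r = 0.81 and rho = 0.88 with COL1A1 (exact p = 0.0149 and 0.00724, n = 8), and within control animals r = 0.27 and rho = 0.18 (exact p = 0.559 and 0.713, n = 7). The thymocyte mean had r = -0.75 in prednisolone animals (exact p = 0.0336) and -0.23 in control animals (exact p = 0.634), and the muscle fibre mean 0.54 in prednisolone animals (exact p = 0.163) and 0.75 in control animals (exact p = 0.0532). These differences between the groups, and the part of the share of spots in the collagen values, were not tested. For the adipocyte, endothelial, smooth muscle, leukocyte, testis germ cell and hepatocyte means and the 75th percentile before scaling, r lay between -0.38 and 0.42, with adjusted permutation p of 0.261 or more.

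**Figure D5:**
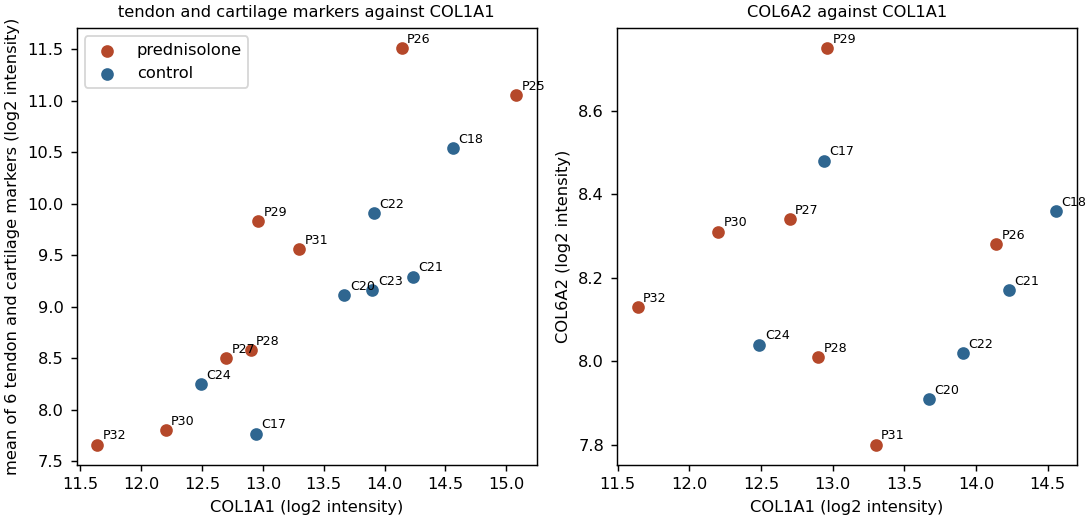
Each point is an animal (prednisolone or control by colour, with its number), with COL1A1 log2 intensity on the x axis and, on the y axis, the mean log2 intensity of 6 tendon and cartilage markers (left) or COL6A2 log2 intensity (right, 13 animals). On the left the points rise together with r = 0.91 after removal of group means; on the right r is 0.01.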

How the data were processed

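The deposited value table holds 1 linear intensity per spot and array; per the labels and the design text, Feature Extraction 9.5 gave background-subtracted, detrended signals, and R 2.11.1 stands in the submitters' processing notes. The method used for scaling was not given in the sources used here. Scanner files of the 8 prednisolone arrays hold processed, mean and background intensities and flags, per the file headers from Feature Extraction 9.5.1.1; there, log2 table values matched log2 processed signals over spots at r of 0.999789 to 0.999991.

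Intensities were put on the log2 scale and spots of a probe were averaged. Each array was then shifted to the same 75th percentile, taken over the 14324 probes measured on every array (before that, 10.56 to 10.76). The brightest probe stood for a gene. Groups were compared with limma 3.58.1 in R 4.3.3 (lmFit, eBayes) on the 20894 probes with at least 3 values per group, with Benjamini-Hochberg adjustment over all of them. The number of arrays limits the precision, and that animals are separate is taken from the labels. Correlations and exact tests used numpy 2.4.6 and scipy 1.17.1. COL14A1 entered no pair and 36 pairs were tested, fewer than planned. The limma step and the correlation test were tested on simulated data. Named genes are the members, the 2 genes of each list with the smallest p and the 2 with the highest r, and the 10 closest genes; 1 gene with a smallest p in its list is not reported here, and others were named after their values were seen. Members and lists were chosen with earlier results of these data known. Alternatives covered scaling, probe choice, filters, weights, tests and left-out arrays. Symbols come from the array annotation and the bovine RefSeq table (assembly ARS-UCD2.0); no coordinates are given, as the build of the array design is not stated here.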

Additional observations from a re-analysis of the deposited data

Results flagged for a closer look

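The balance of COL3A1 against COL1A1 on P25 was -1.19 on the log2 scale, while the other 7 prednisolone animals lay between -0.37 and 0.05. The gap of P25 to the nearest of them exceeded Dixon's 95% critical value. P25 had the highest COL1A1 intensity of all animals (15.08), and its COL3A1 intensity (13.89) was the highest of the prednisolone animals. In all, 28 sets of values were checked in this way, of which chance marks about 1 in 20.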

How the results depend on the processing

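No collagen passed the test under any of the 30 alternatives to the limma fit, the exact permutation test of each gene included. COL1A1, COL1A2, COL3A1, COL5A2 and COL6A3 kept a negative difference under all 29 alternatives fitted for them; with the mean of all probes, which brings in its probe at background, that of COL1A2 was -1.04. COL6A1, close to 0, was negative in 12 of 29, 6 of them with 1 animal left out; the rest were -0.0011 with values as deposited, -0.022 with array weights, -0.11 without C17, C20 and P31, -0.24 without P25 and P26, -0.17 without P25, P26 and P32, and -0.063 with the tendon marker mean as covariate. COL5A1 was 0.069 with quantile normalization. The cause of these sign changes was not tested. Leaving out each animal in turn gave -0.84 to -0.35 for COL1A1, -0.68 to -0.25 for COL1A2, -0.86 to -0.51 for COL3A1, -0.20 to 0.13 for COL5A1, -0.39 to -0.12 for COL5A2, -0.16 to 0.13 for COL6A1, -0.02 to 0.14 for COL6A2, -0.51 to -0.13 for COL6A3 and -0.46 to 0.21 for COL12A1. The count of all genes called was 1 without C20 and P31 and without C17, C20 and P31 (PZP), and 0 to 1 when 1 animal was left out (PZP without P31, ZNF696 without C23); the cause was not tested.

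Of the 36 pairs, 21 (without P25) to 28 reached r of 0.7 when 1 animal was left out, 25 without C17, C20 and P31, and 18 without P25, P26 and P32. With normexp on the scanner signals of the prednisolone arrays 16 pairs did, where 27 did with the main values of those arrays; normexp left the 10th percentile of log2 intensity at 10.06 on P29 and 8.96 on P30, against 5.83 to 7.42 on the other 6, and the cause of the lower count was not tested. In the unplanned regression on the tendon marker mean, 1 of the 36 pairs did.

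The COL1A1 minus COL1A2 balance was 0.48 with the mean of all probes, and COL3A1 minus COL1A1 was 0.014 without P25 and P26. With each animal left out the balances were -0.16 to -0.048 for COL1A1 minus COL1A2, -0.24 to -0.0027 for COL3A1 minus COL1A1, -0.27 to -0.09 for COL5A2 minus COL5A1, 0.092 to 0.47 for COL6A2 minus COL6A1 and -0.43 to -0.14 for COL6A3 minus COL6A1. No paired analysis was possible because the groups share no animal numbers.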
